A study of Mus musculus with 12 samples.

Results

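H19 and 9 other imprinted genes that control fetal and early postnatal growth (Igf2, Dlk1, Meg3, Peg3, Plagl1, Mest, Cdkn1c, Grb10 and Igf2r) were followed in mouse hepatocytes after activation of YAP and after loss of Sox9. The 10 genes were chosen by name as members of the imprinted growth network, with earlier results of these data known. All 10 are among the 16116 genes in the deposited table. Counts of members called beside the share of all genes therefore describe these genes and test no enrichment. The table gives log2 CPM, a log2 value scaled to library size, from an AmpliSeq panel, in which 1 short amplicon stands for each gene. There were 12 libraries in 6 groups of 2. Statements that such groups do or do not overlap describe the libraries only. The share of all genes without overlap was not counted. A gene was tested if its log2 CPM reached 1 in at least 2 libraries, which kept 10681 genes and 7 of the 10 members. Igf2, Dlk1 and Plagl1 stayed under that limit and are described by their levels.

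Hepatocytes were targeted in vivo with adeno-associated virus AAV2/8 whose cargo is driven by the TBG promoter, which is active in hepatocytes, in mice injected at 3 weeks of age. In the YAP experiment, collected 3 weeks after injection, wild type mice received AAV2/8-TBG-GFP (WT GFP), and Sox9 fl/+ mice (YAP Sox9-het) or Sox9 fl/fl mice (YAP Sox9-null) received AAV2/8-TBG-Cre together with a TBG virus that encodes YAP S127A, a YAP protein that escapes Hippo inhibition, joined to GFP by a P2A peptide. In the Mst experiment, collected 4 weeks after injection, all 3 groups carried Mst1 fl/fl, Mst2 fl/fl and the ROSA26-lsl-TdTomato Cre reporter. The floxed GFP group received AAV2/8-TBG-GFP, and the Mst Sox9-het group (also Sox9 fl/+) and the Mst Sox9-null group (also Sox9 fl/fl) received AAV2/8-TBG-Cre. Mst1 and Mst2 are the Hippo kinases that restrain YAP. GFP+ cells or TdTomato+ cells were collected by sorting, after Epcam+ and CD45+ cells had been gated out. The GFP groups received no Cre, so each comparison with them holds Cre, 1 or both Sox9 alleles and the activation together. In the Mst experiment the floxed GFP group had no Cre to turn on TdTomato, and the Mst-deleted groups received no GFP. The colour sorted on therefore differs there as well and cannot be told apart from the rest. Whether the paired libraries of a group stem from different animals is not stated in the labels. The p-values therefore rest on the spread between these libraries, and part or all of it may be technical.

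At an imprinted gene only the copy from 1 parent is transcribed. H19 is a noncoding RNA of the maternal chromosome, abundant in fetal liver and silenced after birth, and it shares enhancers with Igf2, a growth factor gene of the paternal chromosome. Many members of the network are high in growing fetal tissue and fall together after birth. Plagl1 encodes a zinc finger factor that acts on H19, Igf2 and Dlk1. Some members restrain growth (Cdkn1c, Grb10, Igf2r, H19) and others favour it (Igf2, Mest).

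In the GENCODE annotation of GRCm38, H19 is a lincRNA gene on chromosome 7 at 142575529 to 142578143 on the minus strand, and Igf2 begins 72.6 kb away at 142650766 to 142666816 on the same strand. Cdkn1c (chromosome 7, 143458339 to 143461050) lies 791.5 kb beyond Igf2, and Peg3 lies at 6703892 to 6730431 of the same chromosome. On chromosome 12, Dlk1 (109452823 to 109463336) and the lincRNA Meg3 (109541001 to 109571726) are 77.7 kb apart. Exon 1 of H19 holds the miR-675 hairpin, and its mature products are shown because they are the small RNAs cut from H19, the member called in every comparison with control. They are given 5′ to 3′ as RefSeq lists them on GRCm38.p6, at chr7:142577112-142577133 and chr7:142577078-142577099, minus strand, with the seed (bases 2 to 8) in capitals. Their own levels were not analysed here.
miR-675-5p: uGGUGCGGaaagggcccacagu
miR-675-3p: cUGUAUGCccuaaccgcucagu

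Promoter windows from RefSeq (250 bases before to 50 after a transcription start) matched 8 of the 10 members, with 15 windows; H19 and Cdkn1c had none. They were searched on both strands for the TEAD core GGAATG (TEAD proteins carry YAP to DNA), the SOX cores ACAATG and ACAATA, and GGGGCCCC, a core bound by PLAGL1; no 2 of these can match the same letters of a strand. GGAATG was found in 4 of the 15 member windows, all of Igf2 or Peg3, and in 14.6% of 32544 windows of the same length. ACAATG was found in 1 member window (12.38% of all windows), ACAATA in 1 (8.82%) and GGGGCCCC in 1 (1.07%). The windows of Igf2 at its second start (chr7:142661222-142661521, minus strand), Peg3 (chr7:6730370-6730669, minus strand) and Meg3 (chr12:109540746-109541045, plus strand) are printed on the gene's strand, with matches in capitals (CATTCC and CATTGT are GGAATG and ACAATG read on the other strand). They set a gene that stayed under the filter, 1 that no comparison called and the member that fell beside each other. A match is a description of the letters, not of binding.
Igf2: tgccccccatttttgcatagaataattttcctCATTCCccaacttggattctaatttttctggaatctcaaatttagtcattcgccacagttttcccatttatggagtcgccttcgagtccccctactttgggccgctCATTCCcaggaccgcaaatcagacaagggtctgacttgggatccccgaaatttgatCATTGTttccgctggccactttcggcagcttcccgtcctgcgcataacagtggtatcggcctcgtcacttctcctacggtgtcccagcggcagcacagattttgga
Peg3: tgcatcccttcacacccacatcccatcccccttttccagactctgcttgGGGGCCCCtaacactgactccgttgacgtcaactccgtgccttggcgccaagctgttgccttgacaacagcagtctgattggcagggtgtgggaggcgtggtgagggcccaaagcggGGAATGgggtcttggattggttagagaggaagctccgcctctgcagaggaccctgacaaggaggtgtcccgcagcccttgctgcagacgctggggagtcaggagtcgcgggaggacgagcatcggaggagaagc
Meg3: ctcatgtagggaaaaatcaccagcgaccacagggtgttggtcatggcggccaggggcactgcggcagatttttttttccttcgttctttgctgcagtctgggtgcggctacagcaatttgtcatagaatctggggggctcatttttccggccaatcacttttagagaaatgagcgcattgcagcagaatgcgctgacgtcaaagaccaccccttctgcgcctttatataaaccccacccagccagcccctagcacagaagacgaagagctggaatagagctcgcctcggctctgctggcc

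Before the results, 3 features of the table bear on every value. The linear values of a library summed to 879620 to 920020 in the 4 GFP libraries and to 938683 to 1011693 in the 8 others. The 2 GFP groups had equal means (within 0.05) for 98.9% of tested genes, so levels in the 2 experiments can be set side by side only as distances from their own control. Around each group mean, library deviations appear to have been multiplied by a factor per gene before deposit (median 1.58, and 3.22 for H19, 1.86 for Meg3 and 2.0 for Cdkn1c). Such a factor would widen the spread behind each test but leave the group means as they were. It was inferred from the common step of a gene's deviations, assumed to be 0.005 before rescaling. No step was recovered for 1049 of the 16116 genes, whose deviations were left as deposited. Deviations called before the rescaling are deposited deviations divided by this inferred factor, not original values. With them, many more genes passed (limma, adjusted p under 0.05). Of 10681 genes, 1237, 2960, 2118 and 2815 did in YAP Sox9-het, YAP Sox9-null, Mst Sox9-het and Mst Sox9-null, against 168, 760, 454 and 829 on the deposited values. Sox9 itself lay at 4.41 and 5.28 log2 CPM in the YAP Sox9-het libraries and at 2.28 and 2.62 in the YAP Sox9-null ones, and at 6.47 and 5.998 against 1.41 and 1.29 after Mst deletion. The null groups were below the het groups in both experiments. The amplicons of Stk4 (Mst1) and Stk3 (Mst2), at 4.09 to 4.74 and 3.98 to 4.45 in the Mst-deleted libraries against 4.82 to 4.89 and 3.78 to 4.04 in the floxed GFP libraries, check nothing, because the labels do not place them relative to the floxed exons.

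H19 was higher in every activated group than in its control. It stood at 2.31 log2 CPM in both WT GFP libraries, at 5.85 and 6.21 in YAP Sox9-het and at 8.23 and 9.49 in YAP Sox9-null. In the Mst experiment it stood at 2.89 and 1.73 in floxed GFP, at 4.49 and 4.91 in Mst Sox9-het and at 5.44 and 6.24 in Mst Sox9-null. Within each experiment the 3 groups did not overlap, and both Sox9-null libraries lay above both Sox9-het libraries. Ordered by mean over both experiments, YAP Sox9-null (8.86 ± 0.89, SD, n = 2) was highest, followed by YAP Sox9-het (6.03 ± 0.25), Mst Sox9-null (5.84 ± 0.57), Mst Sox9-het (4.70 ± 0.30) and the 2 controls (2.31). The neighbours YAP Sox9-het and Mst Sox9-null overlapped; the other activated groups did not. In Sox9-het cells the activation difference was smaller after Mst deletion than under YAP by 1.33 (SE 0.58), which did not pass (limma, adjusted p = 0.61) except with deviations before the rescaling (adjusted p = 0.0122).

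**Figure D1:**
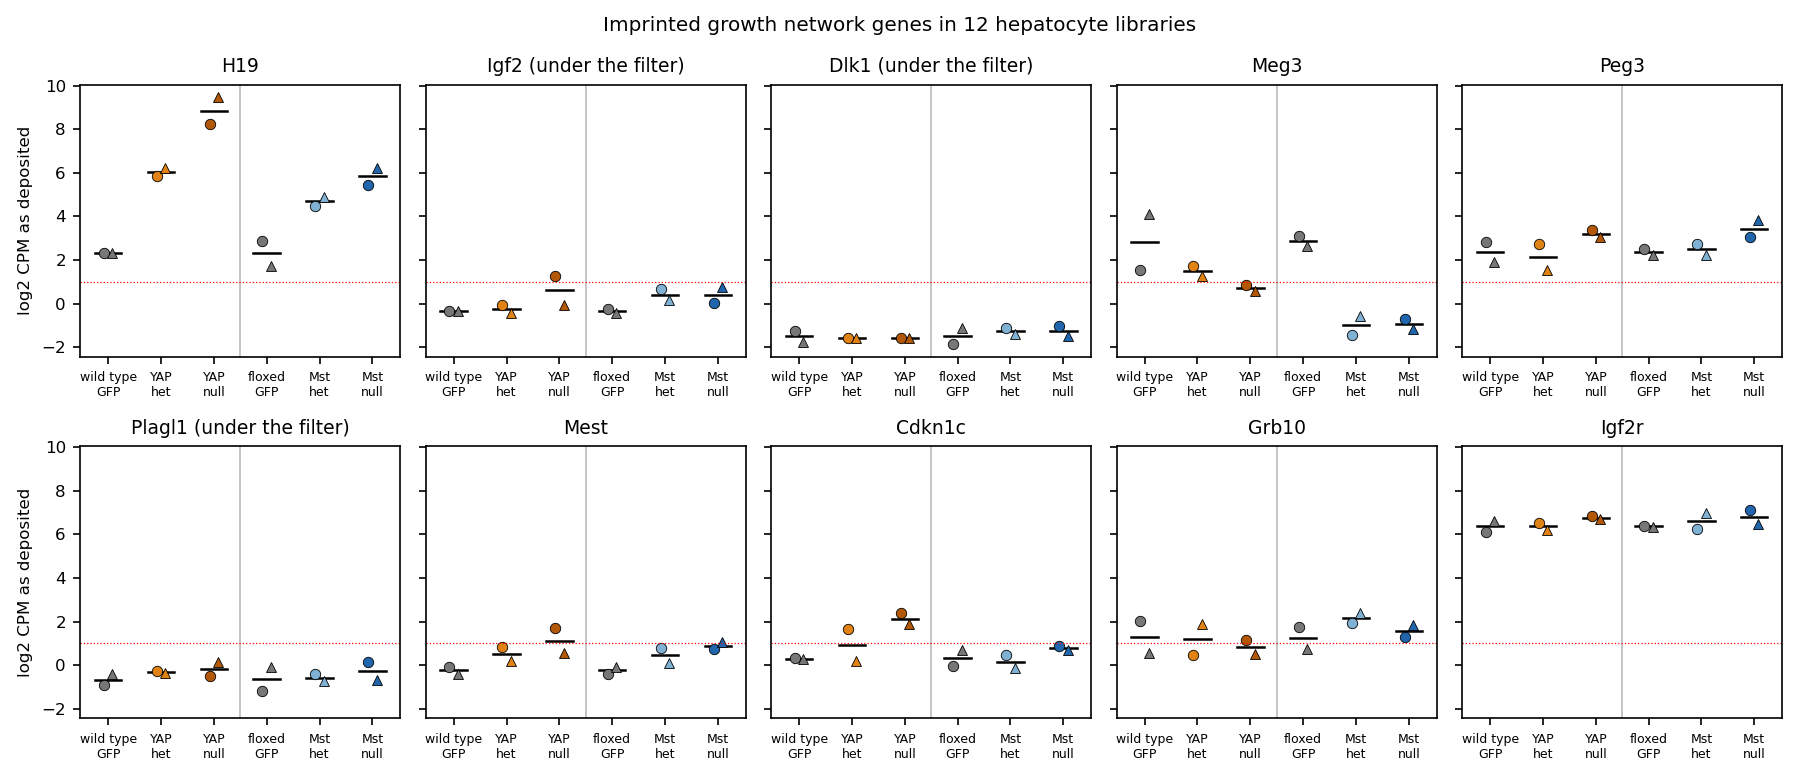
Deposited log2 CPM of the 10 genes (vertical axis) in 6 groups of 2 libraries (horizontal axis). Circles are replicate 1, triangles replicate 2, bars the group means, and the dotted line the filter limit of 1. H19 rises from 2.31 in both WT GFP libraries to 8.23 and 9.49 in YAP Sox9-null, while Meg3 is under 0 in all 4 Mst-deleted libraries.

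The rise of H19 over control passed the test (limma, Benjamini-Hochberg adjusted over all tested genes, two-sided) in all 4 activated groups, each difference with an SE of 0.41. It was 13.2-fold in YAP Sox9-het (adjusted p = 1.78e-04), where H19 was the only member called (1 of 7 tested, against 1.57% of all tested genes). In YAP Sox9-null it was 94.0-fold (log2 difference 6.55, adjusted p = 2e-07), where 2 of 7 were called, against 7.12% of all genes. The second was Cdkn1c, which entered the test through 3 libraries of the YAP S127A groups and whose call ended under several alternatives. After Mst deletion the rise of H19 was 5.26-fold in Sox9-het (adjusted p = 0.00248) and 11.6-fold in Sox9-null (adjusted p = 4.85e-05). Each of those 2 comparisons called 2 of 7 members, against 4.25% and 7.76% of all genes. The comparisons within an experiment share their control libraries. All 4 calls held under each alternative run, with any 1 library left out included.

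Sox9-null libraries had more H19 than Sox9-het libraries under YAP S127A, 7.11-fold (log2 difference 2.83, SE 0.41, adjusted p = 0.00709). H19 was 1 of 18 genes called in that comparison, 0.169% of those tested, and the only member. This call ended without YAP Sox9-het replicate 2 (3.01, adjusted p = 0.11), without YAP Sox9-null replicate 2 (2.20, adjusted p = 0.104), with no filter on low values (adjusted p = 0.228) and without the trended prior (adjusted p = 0.0602). After Mst deletion the difference was 1.14 (SE 0.41) and did not pass (adjusted p = 0.707), although both null libraries were above both het libraries; 5 genes, 0.0468%, passed there and none was a member. The null minus het difference of H19 was smaller after Mst deletion than under YAP by 1.69 (SE 0.58), which did not pass either (adjusted p = 1). In that contrast 0 genes passed the adjusted threshold by limma, while 322 had an unadjusted p under 0.05. With deviations before the rescaling, both the H19 difference after Mst deletion (adjusted p = 0.0142) and its contrast with YAP (adjusted p = 0.0203) passed. Averaged over both experiments, Sox9 loss came with 1.98 more H19 (SE 0.29, adjusted p = 0.00682), again 1 of 7 members against 0.131% of all genes. That averaged call ended without YAP Sox9-het replicate 2 (2.07, adjusted p = 0.059) and without YAP Sox9-null replicate 2 (1.67, adjusted p = 0.0691), with no filter (adjusted p = 0.227) and without the trended prior (adjusted p = 0.0577).

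Igf2, the neighbour of H19 and the growth factor of the network, stayed under the filter limit. It was listed at -0.32 in both WT GFP libraries, -0.06 and -0.44 in YAP Sox9-het, and 1.26 and -0.05 in YAP Sox9-null. In the Mst experiment it was listed at -0.23 and -0.41 in floxed GFP, 0.68 and 0.15 in Sox9-het, and 0.03 and 0.77 in Sox9-null. A log2 CPM under 0 is less than 1 CPM, and 1 library of 12 reached the filter limit. All 4 Mst-deleted libraries were above both floxed GFP libraries. YAP Sox9-null lay above WT GFP as well, while YAP Sox9-het overlapped with it. In a fit with no filter its differences from control were 0.93 in YAP Sox9-null (SE 0.43, adjusted p = 0.376) and 0.74 in Mst Sox9-het (SE 0.43, adjusted p = 0.663). None of the Igf2 comparisons passed, while H19 passed all 4 activation comparisons in that fit too.

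Plagl1, the zinc finger factor of the network, ranged from -1.19 to 0.15 over the 12 libraries and never reached the filter limit. Dlk1, a Notch-related membrane protein of fetal hepatoblasts that is transcribed from the paternal copy of its locus, ranged from -1.87 to -1.01, with the same value of -1.58 in all 4 YAP S127A libraries. With no counts in the table, a value of this size cannot be told from no reads.

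Meg3, the maternal noncoding RNA next to Dlk1, moved opposite to H19 after Mst deletion. It stood at 3.11 and 2.62 in floxed GFP, at -1.44 and -0.55 in Mst Sox9-het and at -0.72 and -1.17 in Mst Sox9-null. All 4 Mst-deleted libraries were below 0 and did not overlap with the controls. Meg3 reached the filter limit in 6 libraries, those of the GFP groups and of YAP Sox9-het. It thus entered the test through groups where it was higher. The log2 difference was -3.86 in Sox9-het (SE 0.64, adjusted p = 0.00175) and -3.81 in Sox9-null (SE 0.64, adjusted p = 0.00132), and both calls held under each alternative run. Genes called lower were 0.796% and 0.88% of those tested. With a pseudocount of 1 CPM the differences shrank to -2.45 in both, still called (adjusted p = 0.00728 and 0.00484), and since the low groups lie under 1 CPM no fold is given.

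In the YAP experiment the level of Meg3 in the 2 control libraries differed more than the groups did. It was 1.52 and 4.10 in WT GFP, 1.74 and 1.29 in YAP Sox9-het and 0.84 and 0.60 in YAP Sox9-null. The first control overlapped with YAP Sox9-het, and only YAP Sox9-null was below both controls. The differences were -1.30 in Sox9-het (SE 0.64, adjusted p = 0.498) and -2.09 in Sox9-null (SE 0.64, adjusted p = 0.0605), so neither passed. Without WT GFP replicate 1 both passed (-2.58, adjusted p = 0.0472, and -3.38, adjusted p = 0.00366), and without WT GFP replicate 2 they were -0.01 and -0.81 (adjusted p = 0.529 for the latter). The Sox9-null difference also passed with library medians equalised (-2.35, adjusted p = 0.0448), under quantile normalization (-2.57, adjusted p = 0.0261), with a replicate block (adjusted p = 0.0441) and with deviations before the rescaling (adjusted p = 0.00175, and 0.0412 in Sox9-het). The activation difference in Sox9-het cells was more negative after Mst deletion by 2.57 (SE 0.90), which did not pass (adjusted p = 0.449) except with deviations before the rescaling (adjusted p = 0.0171). That comparison called 21 genes, 0.197%, and none was a member.

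Rian, a noncoding RNA downstream of Meg3 on the same strand (chromosome 12, 109603940 to 109661716), was singled out after its values were seen. It stood at 1.07 and 3.89 in WT GFP, between 0.35 and 0.80 in the 4 YAP S127A libraries, at 2.62 and 2.34 in floxed GFP and between 1.07 and 1.83 in the 4 Mst-deleted libraries. The second WT GFP library was the highest of the 12 for Rian as it was for Meg3. Every activated library was below both controls of its experiment, but no Rian comparison passed: the differences were -1.98, -1.91, -1.03 and -1.18 for YAP Sox9-het, YAP Sox9-null, Mst Sox9-het and Mst Sox9-null (SE 0.64, adjusted p from 0.0905 to 0.481). Mirg and Rtl1 of the same locus ranged from -0.62 to 0.19 and from -1.85 to -1.43.

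**Figure D2:**
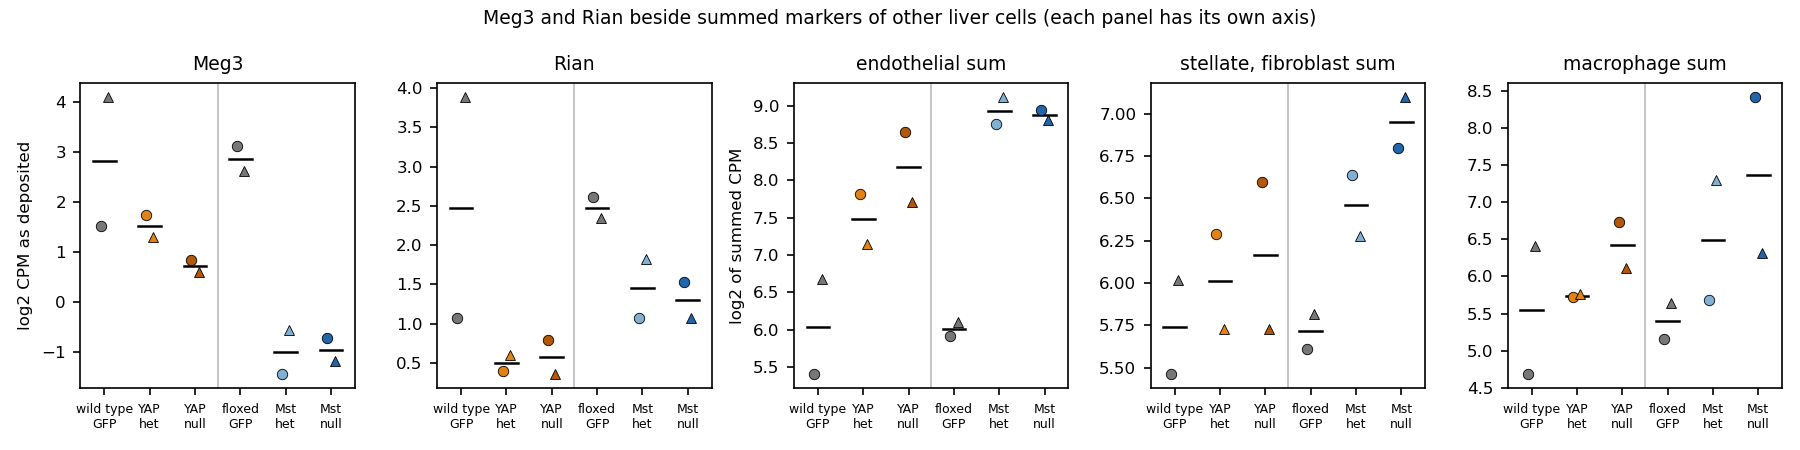
Deposited log2 CPM of Meg3 and Rian and the log2 of the summed CPM of markers of 3 other liver cell types (vertical axes, 1 scale per panel) in 6 groups of 2 libraries. Circles are replicate 1, triangles replicate 2 and bars the group means. Meg3 is below 0 in the 4 Mst-deleted libraries, where the endothelial sum is between 8.75 and 9.12.

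Endothelial and cholangiocyte marker sums were higher in every activated library than in any GFP library. The sums of the other non-hepatocyte types overlapped between GFP and activated libraries. The summed level of 18 endothelial markers was 5.40 to 6.68 (log2 of summed CPM) in the 4 GFP libraries and 7.15 to 9.12 in the 8 activated ones. Of the 17 endothelial markers tested, 2, 6, 8 and 11 were called higher in YAP Sox9-het, YAP Sox9-null, Mst Sox9-het and Mst Sox9-null, and none lower. In the same order, 1.57%, 7.12%, 4.25% and 7.76% of all tested genes were called, most of them higher. The sum of 15 stellate cell and fibroblast markers was 5.46 to 6.02 in GFP libraries and 5.73 to 7.10 in activated ones, with Lum, Des and Acta2 under the filter limit in every library; 0, 0, 1 and 2 of 10 tested were called. The sum of 12 macrophage markers was 4.68 to 6.41 against 5.68 to 8.42, with 0, 0, 0 and 2 of 11 called higher. The second WT GFP library, the one with the high Meg3 and Rian, had higher sums than the first for all of these. They were 6.68 against 5.40 (endothelial), 6.02 against 5.46 (stellate and fibroblast) and 6.41 against 4.68 (macrophage). The cholangiocyte sum went the other way, 7.39 against 8.49. The sum of 12 cholangiocyte markers, a list that holds genes hepatocytes can turn on, was 7.39 to 8.49 against 10.29 to 11.89, with 2, 1, 2 and 2 of 7 tested called higher and 1 lower in Mst Sox9-null (Sox9, the deleted gene), while Krt7 and Cftr never exceeded 0.03. The 8 hepatocyte markers summed to 15.71 to 16.13 in GFP libraries and 15.56 to 16.40 in activated ones. In the same order, 5 lymphocyte markers summed to 0.45 to 0.71 and 0.48 to 0.80, and 5 neutrophil markers to 1.57 to 1.85 and 1.53 to 2.34. The sum of 2 erythroid markers was 5.57 to 6.17 in GFP libraries and 3.74 to 6.05 in activated ones. The part of the endothelial, stellate, macrophage or cholangiocyte markers in the values of H19 and Meg3 was not tested. In bulk libraries, fewer cells of a type and less RNA per cell cannot be told apart.

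Peg3, a zinc finger protein of the paternal chromosome, had higher values in Sox9-null than in Sox9-het libraries of both experiments, but no difference passed on the deposited values. It stood at 2.84 and 1.90 in WT GFP, 2.74 and 1.54 in YAP Sox9-het and 3.38 and 3.05 in YAP Sox9-null, and at 2.5 and 2.23 in floxed GFP, 2.75 and 2.22 in Mst Sox9-het and 3.06 and 3.82 in Mst Sox9-null. Both Sox9-null groups lay above both other groups of their experiment, which overlapped with each other. The null minus het difference was 1.08 under YAP (SE 0.43, limma, adjusted p = 0.661) and 0.96 after Mst deletion (SE 0.43, adjusted p = 0.825). Over both experiments it was 1.01 (SE 0.31, adjusted p = 0.287). None of these passed on the deposited values. With deviations before the rescaling the difference over both experiments did (limma, adjusted p = 0.0251), as did Mst Sox9-null against control (1.08, adjusted p = 0.0304). In that setting 836 and 2815 of 10681 genes passed these 2 comparisons.

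Mest, an enzyme of the alpha/beta hydrolase family that is expressed from the paternal copy in growing tissue, was at or under 1.68 in every library. It was -0.07 and -0.39 in WT GFP, 0.81 and 0.17 in YAP Sox9-het and 1.68 and 0.56 in YAP Sox9-null, and -0.41 and -0.07 in floxed GFP, 0.81 and 0.08 in Mst Sox9-het and 0.73 and 1.05 in Mst Sox9-null. All 8 activated libraries were above the controls of their experiment, and the differences were 0.72, 1.35, 0.68 and 1.13 in the 4 activated groups in that order (SE 0.51, adjusted p from 0.136 to 0.718). No Mest difference passed on the deposited values, and the gene entered the test through 2 libraries. With deviations before the rescaling all 4 passed (limma, adjusted p from 5.96e-04 to 0.0383), and so did Sox9 loss over both experiments (0.54, adjusted p = 0.0401). That setting called 1237, 2960, 2118 and 2815 of 10681 genes in the 4 groups and 836 for Sox9 loss over both. The last part of Mest overlaps Copg2 on the opposite strand (chromosome 6, 30747554 to 30896794, against 30723547 to 30748465 for Mest), and without strand in the counting, on which the labels are silent, reads from the shared stretch cannot be told apart.

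Cdkn1c encodes p57, the imprinted inhibitor of cyclin-dependent kinases. It stood at 0.31 and 0.29 in WT GFP, at 1.64 and 0.18 in YAP Sox9-het and at 2.38 and 1.88 in YAP Sox9-null. In the Mst experiment it was -0.05 and 0.71 in floxed GFP, 0.46 and -0.14 in Sox9-het and 0.89 and 0.71 in Sox9-null. Both YAP Sox9-null libraries were above all 10 others, and in Mst Sox9-null the lower library stood beside the higher control. The YAP Sox9-null difference passed (1.83, SE 0.51, adjusted p = 0.043), but the gene entered the test through 3 libraries of the YAP S127A groups. A limit of log2 2 left the gene out, and the call ended with no filter (adjusted p = 0.0983), medians equalised (1.57, adjusted p = 0.098), quantile normalization (1.33, adjusted p = 0.155), a replicate block (adjusted p = 0.0589), only the YAP experiment (adjusted p = 0.0879), or without WT GFP replicate 1 (0.183), WT GFP replicate 2 (0.151), YAP Sox9-null replicate 1 (1.58, 0.189), YAP Sox9-null replicate 2 (2.08, 0.113) or floxed GFP replicate 2 (0.0511), where the last value in each pair of brackets is the adjusted p. With deviations before the rescaling, Sox9 loss under YAP passed for Cdkn1c as well (1.22, limma, adjusted p = 0.0221), and so did Sox9 loss over both experiments (0.93, adjusted p = 0.0133). In that setting 476 and 836 of 10681 genes passed these 2 comparisons.

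Grb10, an adaptor that damps insulin and IGF receptor signalling, and Igf2r, the receptor that takes IGF2 to the lysosome, showed no difference that passed on the deposited values. Grb10 ranged from 0.48 to 2.39 and every group of the YAP experiment overlapped with its control. In the 6 comparisons of 2 groups its largest difference was 0.92 in Mst Sox9-het (SE 0.56, limma, adjusted p = 0.47). There both libraries (1.95 and 2.39) were above both controls (1.74 and 0.76). That difference passed with deviations before the rescaling (limma, adjusted p = 0.046), where 2118 of 10681 genes did. Igf2r lay between 6.13 and 7.12 in all 12 libraries, with differences from control of 0.01, 0.41, 0.27 and 0.43 in YAP Sox9-het, YAP Sox9-null, Mst Sox9-het and Mst Sox9-null (SE 0.29, adjusted p from 0.472 to 0.999). For Igf2r, both Sox9-null groups lay above their controls, while both Sox9-het groups overlapped with theirs. Airn, the RNA that overlaps Igf2r on the opposite strand (chromosome 17, 12741311 to 12860136), ranged from -0.10 to 0.61.

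**Figure D3:**
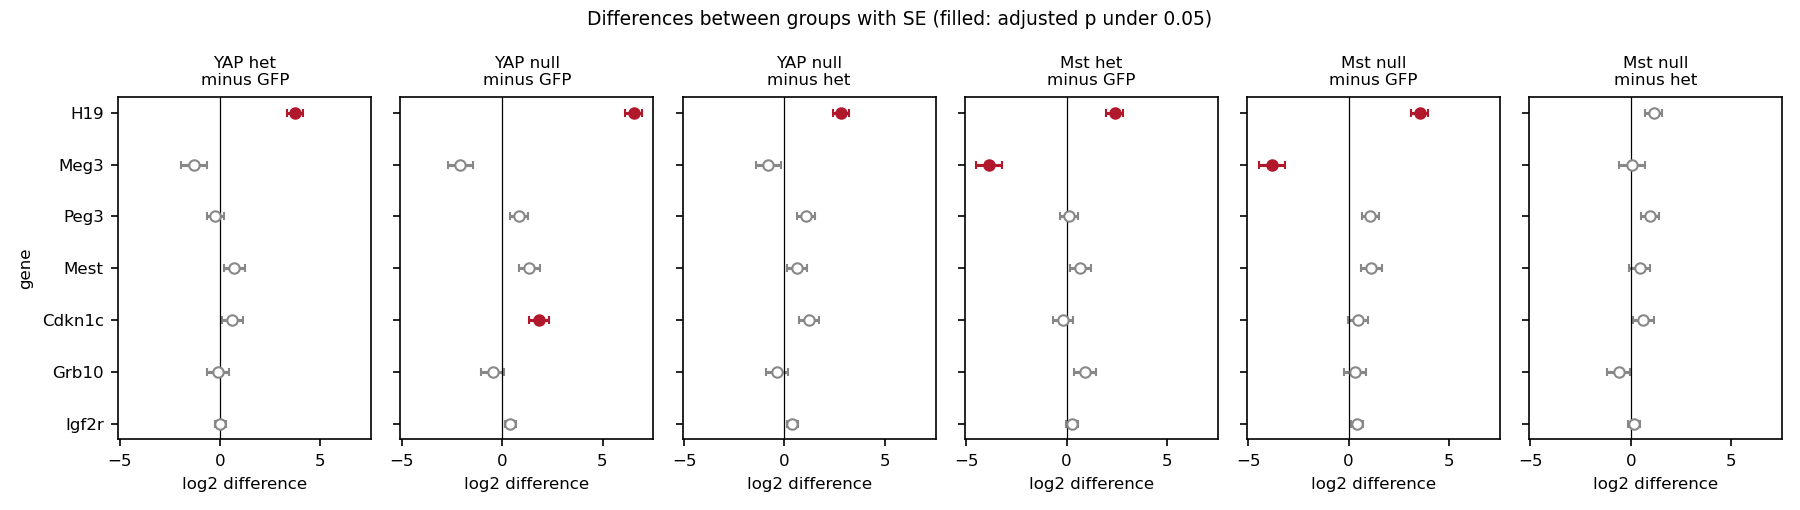
Log2 difference (horizontal axis) of the 7 tested genes (vertical axis) in 6 comparisons of 2 groups of 2 libraries, with bars of 1 SE and filled red points where the adjusted p was under 0.05. H19 is filled in 5 of the 6 panels, Meg3 in both comparisons of Mst-deleted cells with floxed GFP and Cdkn1c in YAP Sox9-null against GFP.

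Beyond the 10 members, 33 calls were made on genes of 5 related lists in the 6 comparisons, and 16 of them ended when no filter on low values was used. Against control, 1.57%, 7.12%, 4.25% and 7.76% of all tested genes were called in YAP Sox9-het, YAP Sox9-null, Mst Sox9-het and Mst Sox9-null. These shares stand beside the counts of every list below. Of 64 other imprinted genes listed, 45 were in the table and 28 were tested. In the 4 comparisons with control (YAP Sox9-het, YAP Sox9-null, Mst Sox9-het, Mst Sox9-null) 1, 3, 1 and 1 of the 28 were called higher and none lower on the deposited values, while 1 was called lower in YAP Sox9-het with equalised medians and under quantile normalization, and in YAP Sox9-null under the latter. Their median differences were -0.08, 0.04, 0.08 and 0.09 beside 0.08, 0.21, 0.08 and 0.17 for all genes. Sgce, encoding the membrane protein epsilon-sarcoglycan, rose in YAP Sox9-null (2.59, SE 0.40, adjusted p = 9.05e-04). Slc38a4, an amino acid transporter of hepatocytes that is imprinted in some tissues, stood at 5.82 and 5.94 in WT GFP, 7.88 and 7.22 in YAP Sox9-het and 8.52 and 9.42 in YAP Sox9-null. The YAP Sox9-null rise of Slc38a4 was 3.10 (SE 0.32, adjusted p = 1.94e-05), and its YAP Sox9-het rise of 1.67 (adjusted p = 0.0114) ended without either WT GFP library (adjusted p = 0.132 and 0.065) or YAP Sox9-het replicate 1 (adjusted p = 0.149). Phactr2 rose in YAP Sox9-null (2.08, adjusted p = 0.00844), a call that ended without WT GFP replicate 2 or either null library (adjusted p from 0.0621 to 0.0884). Dcn, which encodes the matrix proteoglycan decorin made by stellate cells and fibroblasts, rose in Mst Sox9-null (2.59, adjusted p = 0.00478) and in Mst Sox9-het (2.25, adjusted p = 0.0185), the latter not without either floxed GFP library or Mst Sox9-het replicate 1 (adjusted p from 0.0552 to 0.135). Comparing Sox9-null with Sox9-het called none of the 28 in either experiment.

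Among 22 genes of the IGF pathway, 14 were tested, and Igfbp7, a secreted IGF-binding protein that is also abundant in endothelial cells, was the only one called in the 6 comparisons on the deposited values. Igfbp7 stood at 1.76 and 3.18 in WT GFP, 6.38 and 3.72 in YAP Sox9-het and 6.64 and 6.79 in YAP Sox9-null, and at 2.82 and 2.04 in floxed GFP against 5.18 to 5.86 in the 4 Mst-deleted libraries. Its rise was 4.24 in YAP Sox9-null (SE 0.61, adjusted p = 4.62e-04), 3.22 in Mst Sox9-het (adjusted p = 0.00525) and 2.92 in Mst Sox9-null (adjusted p = 0.00697), the last pair ending without floxed GFP replicate 2 (adjusted p = 0.0611 and 0.0659). The YAP Sox9-het call for Igfbp7 (2.58, adjusted p = 0.0465) ended without WT GFP replicate 1, YAP Sox9-het replicate 1 or either YAP Sox9-null library (adjusted p from 0.0859 to 0.448). Igf1, the IGF ligand of the adult liver, lay between 7.78 and 9.55, with differences of -0.77, -1.04, -0.16 and -0.54 in the 4 activated groups (SE 0.33, adjusted p from 0.0742 to 0.887). Igf1 passed as lower in YAP Sox9-null with library medians equalised (-1.30, adjusted p = 0.0386), without YAP Sox9-null replicate 2 (-1.49, adjusted p = 0.0441) and with deviations before the rescaling (adjusted p = 1.18e-04), the last also in YAP Sox9-het and Mst Sox9-null (adjusted p = 0.00216 and 0.00629). Equalised medians also called 1 gene of the list lower in Mst Sox9-null. The binding proteins Igfbp1 and Igfbp2 and the RNA-binding proteins Igf2bp2 and Igf2bp3 were not called, although each passed in at least 2 comparisons with deviations before the rescaling, and Igf1r and Igf2bp1, at or below 0.98 and -1.97, were under the filter limit.

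H19 belongs with Afp and Gpc3 to a group of liver genes that are silenced after birth, several of them repressed by Zhx2, and Afp also by Zbtb20. Of 12 others listed as such genes or their regulators, 11 were in the table and 9 were tested. Of these, 1, 1, 2 and 2 were called higher and 0, 0, 0 and 1 lower in YAP Sox9-het, YAP Sox9-null, Mst Sox9-het and Mst Sox9-null. Whether each listed gene is silenced after birth was not tested. Gpc3, a fetal liver proteoglycan anchored at the cell surface, stood at -0.94 and -0.51 in WT GFP, 6.02 and 4.33 in YAP Sox9-het and 6.73 and 7.36 in YAP Sox9-null, and at -0.80 and -0.65 in floxed GFP, 3.42 and 4.02 in Mst Sox9-het and 4.84 and 4.08 in Mst Sox9-null. Gpc3 rose in all 4 activated groups (5.91, 7.77, 4.45 and 5.19, SE 0.46, limma, adjusted p from 2e-07 to 2.62e-05). Every GFP library lay under the filter limit and under 1 CPM, so Gpc3 entered the test through the activated libraries. The log2 sizes rest on those low control values. Afp, alpha-fetoprotein, stayed between 1.90 and 3.32 in all 12 libraries, with differences of 0.22, 0.08, 0.23 and 0.59 (SE 0.46, adjusted p from 0.553 to 0.951). Activated and control libraries of Afp overlapped in the YAP experiment.

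The other genes of this list that passed a test did so after Mst deletion. Lpl, lipoprotein lipase, stood at 4.97 and 6.73 in WT GFP and between 4.71 and 5.97 in the YAP S127A libraries, but at 6.36 and 5.16 in floxed GFP and between 9.32 and 10.14 in the Mst-deleted libraries. Its rise passed after Mst deletion (3.84 in Sox9-het, adjusted p = 2.69e-04, and 4.08 in Sox9-null, adjusted p = 9.99e-05, SE 0.51). Elovl3, a fatty acid elongase, fell in Mst Sox9-null (-2.96, SE 0.72, adjusted p = 0.0173), a call that ended without floxed GFP replicate 1 (adjusted p = 0.111) or Mst Sox9-null replicate 1 (adjusted p = 0.194). Zhx2 lay between 4.25 and 5.07, with differences of 0.07, 0.07, 0.12 and 0.06 (SE 0.27). Zbtb20 lay between 7.02 and 9.07, with differences of -0.02, -0.01, 0.88 and 0.70 (SE 0.42, adjusted p from 0.314 to 0.997). Neither regulator was called on the deposited values, and with deviations before the rescaling Zbtb20 passed in Mst Sox9-het (adjusted p = 0.024) and Mst Sox9-null (adjusted p = 0.0489).

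**Figure D4:**
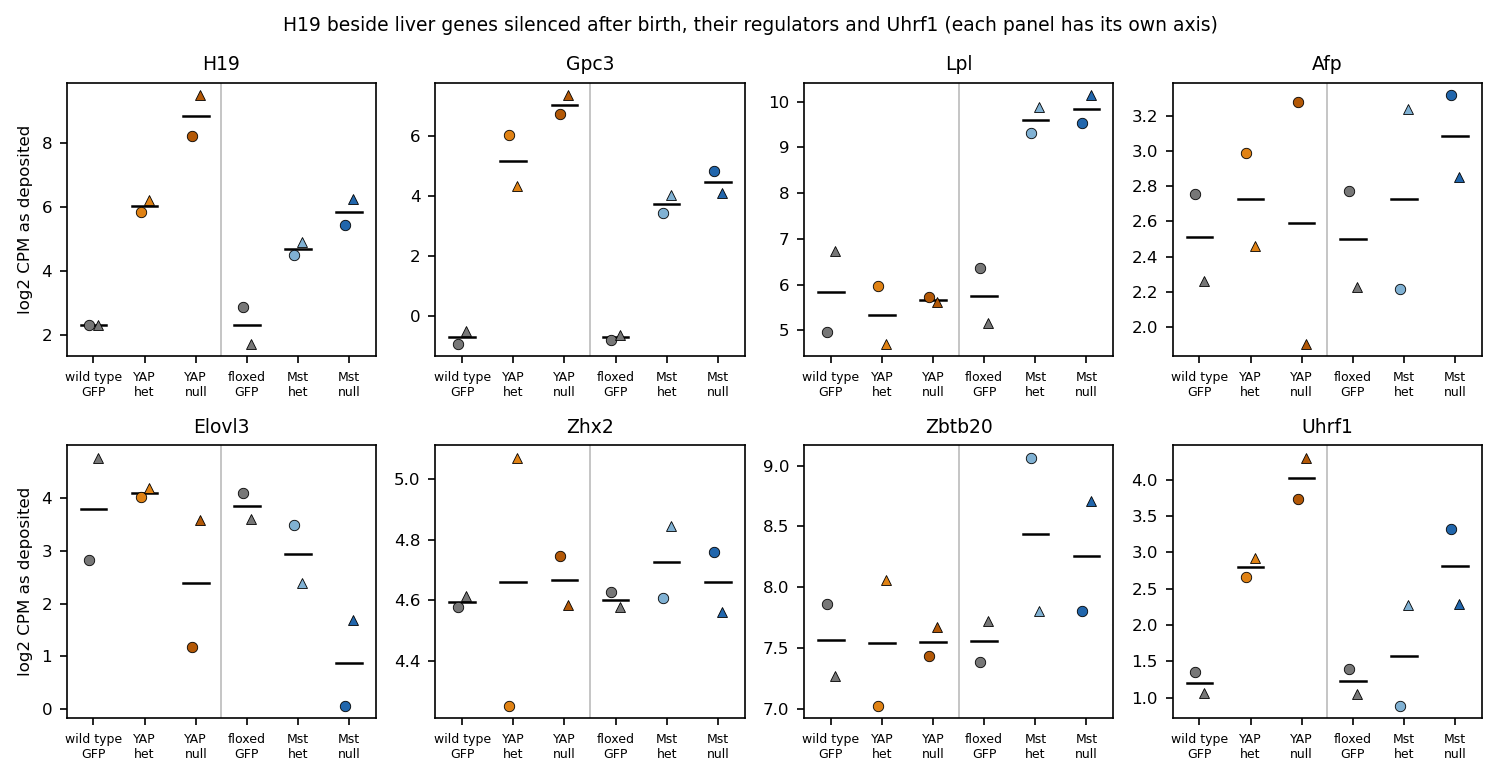
Deposited log2 CPM (vertical axis, 1 scale per panel) in 6 groups of 2 libraries. The panels hold H19, Gpc3, Lpl, Afp and Elovl3, the regulators Zhx2 and Zbtb20, and Uhrf1. Circles are replicate 1, triangles replicate 2 and bars the group means. Gpc3 is higher than control in all 8 activated libraries, Lpl in the 4 Mst-deleted ones, and Afp stays between 1.90 and 3.32.

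Of 22 genes that keep imprints or methylate DNA, 17 were tested. In YAP Sox9-null 1 was called higher and 1 lower, and in Mst Sox9-null 1 was called higher, or with equalised medians or quantile normalization 0 higher and 1 lower (Zfp445). Uhrf1, which brings the maintenance methyltransferase to newly copied DNA, stood at 1.35 and 1.06 in WT GFP, 2.67 and 2.92 in YAP Sox9-het and 3.73 and 4.30 in YAP Sox9-null, a rise of 2.81 in the last group (SE 0.45, adjusted p = 0.00116). Its rise in Mst Sox9-null (1.58, adjusted p = 0.0443) ended when any of 9 of the 12 libraries was left out. Zfp445, a zinc finger protein that protects imprints, fell by 1.10 in YAP Sox9-null (SE 0.32, adjusted p = 0.0485), and this call ended when any of 8 of the 12 libraries was left out. Its differences in Mst Sox9-het and Mst Sox9-null, -1.14 and -1.04, did not pass (adjusted p = 0.0586 and 0.0595) but did with the Mst experiment alone (adjusted p = 0.0271 and 0.0257). Ctcf, the insulator protein of the H19 and Igf2 control region, Dnmt1 and Trim28 were not called on the deposited values, with differences of at most 0.39, 0.56 and 0.65 in the 4 activated groups; with deviations before the rescaling Ctcf passed in YAP Sox9-null (adjusted p = 0.0329) and Dnmt1 in both Sox9-null groups (adjusted p = 0.0115 and 0.0135). Zfp57 was under the filter limit in every library.

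Of 14 inhibitors of the CIP/KIP and INK4 families listed with their cyclins and kinases, the relatives and targets of Cdkn1c, 12 were tested, and 3, 5, 1 and 4 were called higher in YAP Sox9-het, YAP Sox9-null, Mst Sox9-het and Mst Sox9-null, and none lower. Calls over all tested genes were 1.57%, 7.12%, 4.25% and 7.76% in that order, most of them higher. Ccnd1, cyclin D1, stood at 4.54 to 4.88 in the 4 GFP libraries and at 6.80 to 9.15 in the 8 activated ones, and rose in all 4 groups (2.77, 3.94, 3.25 and 4.21, SE 0.37, adjusted p from 2.62e-06 to 6.78e-04). Cdkn2c, the INK4 inhibitor p18, rose in YAP Sox9-null (1.89, adjusted p = 7.47e-04) and Mst Sox9-null (1.80, adjusted p = 9.04e-04), and in YAP Sox9-het (1.37, adjusted p = 0.0224) unless WT GFP replicate 1 or YAP Sox9-het replicate 1 was left out (adjusted p = 0.296 and 0.193). Cdkn1a, p21, rose in YAP Sox9-het (1.68, adjusted p = 0.0367) and YAP Sox9-null (1.78, adjusted p = 0.00934). Without WT GFP replicate 1 both Cdkn1a calls ended (1.02 and 1.11, adjusted p = 0.433 and 0.172), the second also without YAP Sox9-null replicate 2 (adjusted p = 0.133) and the first without any 1 of the 4 YAP S127A libraries (adjusted p from 0.0545 to 0.164). Cdkn1b, p27, rose in YAP Sox9-null (1.51, adjusted p = 0.00587), but not without WT GFP replicate 2 or YAP Sox9-null replicate 2 (adjusted p = 0.0846 and 0.105). The calls for Cdk4 in YAP Sox9-null (1.02, adjusted p = 0.0414) and for Cdk6 and Cdkn2d in Mst Sox9-null (1.27 and 1.33, adjusted p = 0.0146 and 0.0259) each ended without either control library of the comparison and without 1 library of the null group.

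The genes whose log2 CPM followed H19 most closely over the 12 libraries were St3gal2 (Pearson r = 0.961), Tmem132a (0.956), Top2a (0.956), Slc5a1 (0.952), Itga7 (0.952) and Myo15b (0.947). Top2a is the topoisomerase of dividing cells. Closest to Meg3 were Npr2 (0.955) and Slc1a2 (0.945), to Peg3 Parp4 (0.927) and Nt5c2 (0.925), to Mest Fmnl3 (0.973) and Sytl4 (0.954), and to Cdkn1c Trpm4 (0.974) and Cmpk2 (0.959). Closest to Grb10 were Mrpl17 (0.93) and Mrps12 (0.914), and to Igf2r Ciita (0.966) and Stk36 (0.955). Between the members themselves, r was 0.73 for H19 with Mest, 0.702 with Cdkn1c, 0.454 with Peg3, 0.419 with Igf2r, -0.168 with Grb10 and -0.491 with Meg3. Pairs of members without H19 ranged from -0.633 (Cdkn1c with Grb10) to 0.754 (Mest with Cdkn1c). The genes named as closest have the highest of many values over 12 libraries in 6 groups. All of these values share the group differences, so they describe these libraries only.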

How the data were processed

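The 12 sorted hepatocyte libraries were prepared with an Ion AmpliSeq mouse transcriptome panel and read on an Ion GeneStudio S5 Plus, per the labels' protocols. The values are log2 CPM as deposited by the authors (RPM in the labels). Aligner, counter, genome build and adjustment: not given in the sources used here. Counts are not in the table, so depth is unknown and no counting interval is given.

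Group means over all 12 libraries were fitted with limma 3.58.1 in R 4.3.3 on log2 values, with a trended prior, for 10681 genes at log2 CPM of at least 1 in at least 2 libraries, with 6 residual degrees of freedom. In the Mst experiment replicate means were equal (within 0.05) for 99.9% of tested genes, so the libraries hold fewer independent deviations than that. Two-sided p-values were adjusted over all tested genes by Benjamini and Hochberg's method, and a gene was called under 0.05. The script was tested on simulated data. Samples were grouped by the labels' genotype and virus.

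Named genes were the 10 members, the called genes of each list (at most 4 per direction), a set of named pathway genes and the nearest genes by Pearson r. Members and lists were chosen with earlier results of these data known. Alternatives were other filters, scalings, a pseudocount, no trended prior, a replicate block, 1 experiment alone, deviations divided by the recovered rescaling factor, and each library left out. List genes outside the table were not analysed here.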

Additional observations from a re-analysis of the deposited data

Results flagged for a closer look

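Lpl, from the list of liver genes silenced after birth and their regulators, differed between the 2 ways of activation. In Sox9-het cells its difference from control was larger after Mst deletion than under YAP S127A by 4.35 (log2, SE 0.72, limma interaction contrast, adjusted p = 0.0275), with 3.84 after Mst deletion and -0.51 under YAP S127A. Both Mst Sox9-het libraries lay above all 6 libraries of the YAP experiment. The difference lay between 3.47 and 5.24 with any 1 library left out, and it no longer passed without WT GFP replicate 2 (adjusted p = 0.0781), YAP Sox9-het replicate 2 (0.11), floxed GFP replicate 2 (0.0956) or Mst Sox9-het replicate 2 (0.0787), with no filter (0.347) or without the trended prior (0.139). The viruses, the colour sorted on, the weeks after injection and the experiment differ together between these arms and cannot be told apart.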

How the results depend on the processing

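No called difference reversed under the 21 alternatives, and 6 of the 9 member calls held under every one of them: H19 in the 4 activated groups and Meg3 in both Mst-deleted groups. Counts below are in the order YAP Sox9-het, YAP Sox9-null, Sox9 loss under YAP, Mst Sox9-het, Mst Sox9-null, Sox9 loss after Mst deletion, difference of activation, difference of Sox9 loss and Sox9 loss over both. Against 168, 760, 18, 454, 829, 5, 21, 0 and 14 genes called, no filter gave 72, 369, 5, 189 and 416 for the first 5, then 2, 3 and, over both, 5. Deviations before the rescaling gave 1237, 2960, 476, 2118, 2815, 193, 636, 63 and 836 genes and 3, 4, 2, 4, 4, 1, 2, 1 and 4 members. For YAP Sox9-null, equalised medians called 484 genes and quantile normalization 449. The experiment alone gave 483 there, 9 for Sox9 loss under YAP and 2 after Mst deletion. Without the trended prior, Sox9 loss under YAP called 6 genes, the difference of activation 3 and Sox9 loss over both 8. Members called in YAP Sox9-null fell to 1 with no filter, with a limit of log2 2 and with the experiment alone, and those in Sox9 loss under YAP and over both fell to 0 with no filter or without the trended prior.

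With any 1 library left out, genes called ranged over 92 to 291, 328 to 1003, 4 to 128, 189 to 524, 348 to 981, 3 to 20, 0 to 39, 0 to 18 and 6 to 115, and members over 1 to 2, 1 to 2, 0 to 1, 2 to 2, 2 to 2, 0 to 0, 0 to 0, 0 to 0 and 0 to 1. Of 33 calls on list genes, 17 held with any 1 library left out.

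Scaling moved the split of calls. In YAP Sox9-null 709 higher and 51 lower became 388 and 96 with equalised medians and 352 and 97 with quantile normalization, in Mst Sox9-null 735 and 94 became 472 and 167 or 422 and 151, and over both 10 and 4 became 6 and 4 with quantile normalization. The median difference of all genes in YAP Sox9-null was 0.21 as deposited and -0.08 after quantile normalization. The causes of these changes were not tested.

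In the YAP experiment deviations of same-numbered libraries correlated at -0.117 to -0.063, so the replicate numbers showed no pairing there. In the Mst experiment they correlated at -0.644 to -0.315. Those deviations sum to 0 over the groups, which forces negative values, so pairing cannot be judged there. With a replicate block, Sox9 loss under YAP called 39 genes, the difference of activation 35, the difference of Sox9 loss 5 and Sox9 loss over both 41. The planned count model was not run, since whole reads could not be recovered from the log2 values.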
